A study of Mus musculus with 4 samples.

Results

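Of the 55681 different probes on the mouse gene expression array, 2744 (4.93%) carried no identifier but their own. For these probes the column that normally holds a transcript accession repeated the probe name, and they are called unannotated probes here. The rule used no measured value. Of the others, 27752 had a RefSeq NM or NR accession, which stands for a curated transcript, and 16194 were named by the coordinates of an intergenic region. The rest had an Ensembl transcript (3218), a GenBank full-length cDNA (2497), a predicted RefSeq transcript (933), an identifier starting with NAP (842) or with TC (448), or another accession (1053). Each unannotated probe was on the array as 1 spot, and 2701 of them belonged to the A_55 probe series.

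A probe of this kind is a short DNA oligonucleotide spotted on glass that binds labeled copies of any RNA with a matching sequence. Probes can be designed from transcript models or expressed sequence tags that an annotation has not named. Their brightness is measured like that of any other probe, but the RNA that they report is not stated. No probe sequence was available here, so the probes are given by their names and signals.

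The brains came from 1-day-old offspring of C57BL/6J dams that received 25 μL of vehicle (Sham) or of a titanium dioxide nanoparticle suspension (TiO2-H, 100 μg per mouse) by intratracheal spray. Gestational day 10.5 is given as the day of exposure, and other labels give day 14. Equal amounts of whole-brain RNA from 2 offspring per dam were pooled for each exposure and sex, from 5 Sham dams and from 6 TiO2-H dams. The 4 pools were hybridized to 1 array each, so no group has a replicate and precision is limited by how few arrays there were.

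Markers of brain were checked first. The 6 neuron markers looked for, among them Tubb3 (a neuronal tubulin) and Dcx (a microtubule protein of young neurons), were well above background on every array, while the liver gene Alb was on none. The 3 other markers of tissues outside the brain, Acta1, Myh3 (muscle) and Krt5 (skin), were also well above background on all 4 arrays. The 2 erythroid markers found were Hba-a1 and Alas2. Their summed unscaled signals were 50615 and 47687 on the Sham arrays and 44579 and 45045 on the TiO2-H arrays. Most of each sum was Hba-a1. Alas2 alone gave 956.8 and 821.5 against 829.0 and 878.5, so its groups overlapped. The part of these markers in the results was not tested. The labels of sex did not match the sex-linked genes. Xist, the RNA of the inactive X chromosome, gave signals of 17.9 and 275.6 on the Sham arrays labelled male and female and of 346.6 and 5.36 on the TiO2-H arrays labelled male and female. The Y-linked gene Eif2s3y gave 3519, 419.5, 6.40 and 4345 in that order. Both TiO2-H arrays therefore went against their labels, and the Sham female array held signal of both genes. For this reason the arrays are called labelled male and labelled female.

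Fewer unannotated probes than other probes were detected on every array. A probe counted as detected where the scanner software marked its spot well above background. Of the 2744 unannotated probes, the Sham arrays labelled male and female detected 45.1% and 44.4%, and the TiO2-H arrays labelled male and female 48.1% and 48.7%. In the same order, the shares of the other 52937 probes were 56.2%, 55.5%, 58.8% and 60.6%. The difference was -11.2 ± 0.54 percentage points (SD, n = 4 arrays), and -17.9 ± 0.59 points against the other probes of the A_55 series alone. Both kinds of probe were detected more often on the TiO2-H arrays than on the Sham arrays. The lowest signal marked well above background was 30.4 and 31.7 on the Sham arrays labelled male and female. On the TiO2-H arrays it was 29.5 and 23.3 in that order. The part of this limit in the shares detected was not tested. A signal in a whole brain cannot tell fewer cells of a type from less RNA per cell.

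By class of identifier, detection of the unannotated probes (46.6% on average over the arrays) was close to that of Ensembl (48.2%), predicted RefSeq (48.1%), full-length cDNA (47.8%) and TC (45.0%) probes. It was higher than that of the intergenic region probes (36.2%) and lower than that of the NM or NR probes (73.2%). These shares were given no test.

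Detection was mostly shared by all arrays or by none. Of the unannotated probes, 1164 (42.4%) were well above background on all 4 arrays and 1273 (46.4%) on none. The remaining probes were detected on 1 (199 probes), 2 (68 probes) or 3 arrays (40 probes). Detection on both TiO2-H arrays and neither Sham array was found for 51 probes (1.86%), and the opposite for 1 (0.036%). Among other probes the same counts were 946 (1.79%) and 47 (0.089%), so that the excess on the TiO2-H arrays was present there also. The 75th percentile of all signals was 810 and 795 on the Sham arrays and 867 and 871 on the TiO2-H arrays.

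The unannotated probes held more dim and more very bright spots than the others did. Signals are given on the log2 scale relative to the 75th percentile of the same array, so that 0 is that percentile. The median of the unannotated probes was -5.10 on average and that of the other probes -3.66, a difference of -1.44 ± 0.09 (SD, n = 4 arrays). At the 75th percentile both were nearly equal, at -0.13 and -0.16. At the 90th percentile the order had turned, with 4.42 for the unannotated probes and 2.47 for the others, a difference of 1.95 ± 0.03 (SD, n = 4 arrays), which had this sign on all 4 arrays. The difference was 2.11 at the 95th and 0.96 at the 99th percentile. Against the other probes of the A_55 series alone, the difference at the 90th percentile was smaller, at 0.94 ± 0.04, and that of the medians larger, at -2.34 ± 0.10 (SD, n = 4 arrays).

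Counted over the 4 arrays, 310 unannotated probes had a mean signal more than 4 log2 units above the 75th percentile, which is 11.3% of them against 4.61% of the others. More than 6 log2 units above it were 134 (4.88%), against 1.18% of the others. The share past 4 log2 units was 10.5% for predicted RefSeq and 29.8% for NAP probes, so bright signals were not particular to probes without an identifier. For NM or NR probes the share was 6.22%. The unannotated probes gave 11.2% to 11.4% of the summed signal of an array from 4.93% of the probes. Levels of different probes are not amounts of RNA, since probes differ in affinity.

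The brightest unannotated probe, A_55_P2090953, had signals of 204539 and 194735 on the Sham arrays (labelled male, then female) and of 202866 and 216141 on the TiO2-H arrays. It lay 7.94 log2 units above the 75th percentile, and no spot of the array was marked as saturated. The next in order was A_55_P2186787, with 197329, 188796, 195824 and 203268. A_55_P1962466 followed with 191414, 181797, 192927 and 197769. The signals of each of these probes were similar on all 4 arrays. After them came A_55_P1969874, A_55_P1970596, A_55_P1953475, A_55_P2152188, A_55_P2015934, A_55_P2015666 and A_55_P1969993, all more than 7.6 log2 units above the 75th percentile. After scaling to the 75th percentile, TiO2-H minus Sham for the 10 ranged from -0.08 (A_55_P1969874) to 0.09 (A_55_P1970596), with standard errors of 0.04 to 0.08 (limma, 2 arrays against 2). A_55_P1970596 was the only one of the 10 with both scaled TiO2-H signals above both Sham signals, 168878 and 164044 on the Sham arrays and 194832 and 187886 on the TiO2-H arrays.

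The 50 brightest unannotated probes, each at least 124 times the 75th percentile, differed between the arrays by small steps. After scaling, both TiO2-H arrays lay below both Sham arrays for 32 of them (64.0%) and above for 1. Over all probes detected on the 4 arrays the background of such orders was 25.8% below and 28.9% above. The median of TiO2-H minus Sham was -0.06 on the log2 scale, the lowest -0.16 and the highest 0.13. The range over the 4 arrays was 0.11 for the median probe. Each of these probes had 1 spot per array, and bright probes spotted 10 times varied by an SD of 0.06 to 0.07 within an array. Steps of this size in a single probe are therefore not beyond the spread between spots. In 34 of the 50 the highest scaled signal was on the Sham male array. The first principal component of the row-centred signals held 63.0% of their variance, with array weights of 0.78 for Sham male, 0.09 for Sham female, -0.44 for TiO2-H male and -0.43 for TiO2-H female. This component set the Sham male array apart from both TiO2-H arrays, with Sham female between them. Row-centred signals of 4 arrays have only 3 components, and the others held 25.2% and 11.7%.

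Of the 255 other probes at least as bright as the dimmest of the 50, 51.8% had both TiO2-H arrays below both Sham arrays and 11.8% above, against 64.0% and 2.0% of the 50, and their median was -0.04. Their first component held 66.7% of the variance, with weights of 0.68, 0.27, -0.56 and -0.39 in the same order of arrays. Among these 255 were 55 probes of cytosolic ribosomal protein genes, whose median was -0.06. The direction rested on the scaling. Without scaling, 1 of the 50 lay below both Sham arrays (2.0%, against 0.78% of the other probes as bright) and 28 above. With quantile normalization 16 lay below (32.0%, against 25.6% of the others) and 7 above. The shares of the others above were not taken under these settings. The difference between the medians of the 50 and of the 255 was -0.02. Scaling could not change it, since it shifts every probe of an array by the same amount. With quantile normalization the difference from the other probes as bright was -0.01.

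The fold change of TiO2-H over Sham was tested with limma for 31919 probes detected on at least 2 arrays, 1271 of them unannotated. The other 1473 were not tested, 1472 because they were detected on fewer than 2 arrays and 1 because of an outlier spot. No probe passed an adjusted p of 0.05 (0 of 31919, or 0%), and the lowest adjusted p was 0.0988 over all probes and 0.257 among the unannotated ones. At an unadjusted p under 0.05 there were 194 unannotated probes, or 15.3%, against 16.7% of all probes tested. Of these 90 were higher in TiO2-H (7.08%, against 11.1% of all) and 104 lower (8.18%, against 5.65%). This balance changed with the processing, to 243 higher and 11 lower without scaling, and to 43 higher and 43 lower without the TiO2-H male array. Spread was estimated from the arrays of either sex label within an exposure, so it holds differences between the sexes as well as between pools.

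Among the 1164 unannotated probes detected on all 4 arrays, fold changes were centred slightly below those of the others. Both TiO2-H arrays lay above both Sham arrays for 229 (19.7%, against 28.9% of the 29409 probes of this kind) and below for 451 (38.7%, against 25.8%). The median log2 fold change was -0.04 on the arrays labelled male and -0.04 on those labelled female, and 0.01 on both pairs for the other probes. The median was below that of the others in each class of brightness, but by an amount that varied, and it was above 0 in the largest class, from 4 to 2 log2 units below the 75th percentile (0.04 for 267 unannotated and 0.06 for 7703 other probes). Between 2 and 4 log2 units above the 75th percentile the median was -0.04 for 192 unannotated and -0.01 for 4062 other probes, and above 6 log2 units it was -0.07 for 134 and -0.05 for 625. Probes with a NAP identifier had a median of -0.06 and full-length cDNA probes one of 0.09. Without scaling the median over all tested probes moved by more than 0.1, from 0.01 to 0.13. That of the unannotated probes moved from -0.03 to 0.09, so the sign changed with the scaling. The difference between both kinds of probe was -0.04. Scaling could not change this difference, since it shifts every probe of an array by the same amount.

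A small group of bright unannotated probes was higher on both TiO2-H arrays than on both Sham arrays by a wide margin. It was chosen after its values were seen, by a 1.3-fold gap between the lower TiO2-H and the higher Sham signal in probes detected on all 4 arrays with a mean more than 2 times the 75th percentile. Of the 9983 probes of that brightness 21 (0.21%) had such a gap, and 9 of the 21 were unannotated, from 589 unannotated probes of that brightness (1.53%). No probe of that brightness had the gap in the opposite direction. With a gap of 1.2-fold the counts were 63 probes, 11 of them unannotated, and with 1.5-fold 6 probes, 2 of them unannotated. The picture depended on the limit of brightness. Without it, 18 of 1164 unannotated probes had the 1.3-fold gap (1.55%, against 0.813% of all). At 1.2-fold there were 29 (2.49%, against 2.39% of all). The 1.3-fold gap in the opposite direction was then found for 45 probes, 3 of them unannotated (0.258%, against 0.153% of all). Because the values chose them, the members are described, and no test was made of the group. Their limma values come from the fit over all tested probes and give the group no independent support.

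The largest fold change in the group was that of A_55_P2116149, with signals of 3045 (Sham male), 4827 (Sham female), 7679 (TiO2-H male) and 9231 (TiO2-H female). It was 1.02 ± 0.28 on the log2 scale (limma SE), or 2.03-fold. A_55_P2020035 had 3709 and 5127 on the Sham arrays and 7950 and 9666 on the TiO2-H arrays, a log2 fold change of 0.89 ± 0.22. In both probes the Sham female array was brighter than the Sham male array. That the groups did not overlap was required by the rule of choice.

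A tighter pair of Sham signals was seen for A_55_P2075731, at 4360 and 4485 against 8179 and 9586 (log2 fold change 0.89 ± 0.10). A_55_P2064171 gave 4671 and 4695 on the Sham arrays and 8275 and 9329 on the TiO2-H arrays (0.79 ± 0.08). The dimmest of the group, A_55_P1974780, gave 1748 and 1840 against 2951 and 3251 (0.67 ± 0.08). In these 3 probes the Sham arrays differed by far less than Sham and TiO2-H did.

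Signals of A_55_P2035038 were 4937 and 6680 on the Sham arrays and 9651 and 11615 on the TiO2-H arrays (0.77 ± 0.21). Those of A_55_P2021398 were 5053 and 5878 against 9218 and 11687 (0.82 ± 0.16). A_55_P1961760 had 4202 and 5541 against 7905 and 10220 (0.78 ± 0.22). All 3 had the same order of arrays, rising from Sham male through Sham female and TiO2-H male to TiO2-H female. The exception to this order was A_55_P2028847, which was higher on the Sham male (5379) than on the Sham female array (3910) and near equal on the TiO2-H male (7873) and TiO2-H female (7799) arrays (0.66 ± 0.17). Adjusted p in limma lay between 0.257 and 0.271 for the 9.

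The likeness of the profiles was measured as the largest difference on any array between scaled log2 signals after each probe's own mean was taken off. It was 0.06 between A_55_P2035038 and A_55_P1961760, the closest pair, and 0.74 between A_55_P2028847 and A_55_P2116149, the farthest. The spots of the 9 probes lay apart on the glass, in rows from 59 to 360. Neighbouring spots within 1 row and 2 columns had median log2 fold changes between -0.04 and 0.14. The neighbours were not chosen by a gap as the 9 were, and an effect of position on the glass was not tested. With a normexp background 8 of the 9 kept the gap of 1.3-fold. The 9 probes kept both TiO2-H arrays above both Sham arrays with quantile normalization and with a normexp background. The order also held without scaling and with outlier spots kept, but neither setting could have changed it. The signal used for scaling was higher on both TiO2-H arrays than on both Sham arrays, so leaving scaling out only widened the gap. Keeping outlier spots left the fold changes of the 9 as they were.

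Among the 12 annotated probes that met the same rule, 4 with a curated accession and 1 with a NAP identifier had the largest fold changes. The probe of Rhox8, a homeobox gene of the reproductive cluster, gave 2582 and 3694 on the Sham arrays and 7133 and 8213 on the TiO2-H arrays. That of Dcc, the netrin receptor of axon guidance, gave 3953 and 4972 against 10136 and 11721. The probe names of Dcc (A_55_P1961761) and of the unannotated A_55_P1961760 differ by 1 in the last digit, and no file says that their sequences are related. For Gcm1, a transcription factor of the placenta, the signals were 3024 and 3786 against 6552 and 7969, and for Chmp4b, a subunit of the ESCRT-III membrane scission complex, 4580 and 6213 against 10238 and 9779. The NAP probe gave 2847 and 3301 against 6738 and 7170.

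The profile most like the median of the 9 unannotated probes, over annotated probes of that brightness, was that of the Gcm1 probe, with a largest difference of 0.14 over the 4 arrays. It was followed by an Ensembl transcript probe (0.18), the NAP probe (0.18), the Chmp4b probe (0.19) and another Gcm1 probe (0.21). The second Gcm1 probe had 4389 and 4939 on the Sham arrays and 6475 and 7540 on the TiO2-H arrays.

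Outside the bright group, the largest increase among unannotated probes detected on all arrays in which both TiO2-H signals lay above both Sham signals was that of A_55_P2067146, a dim probe with 35.7 and 43.0 on the Sham arrays and 76.8 and 78.2 on the TiO2-H arrays (log2 fold change 0.87 ± 0.12, adjusted p = 0.257 by limma). The lowest p by limma of any unannotated probe was that of A_55_P2095227, with 44.2 and 42.9 against 69.6 and 68.3 (0.55 ± 0.04, adjusted p = 0.257). Its value was -0.07 with the normexp background, so the direction turned with the background correction. Another dim probe, A_55_P2334942, gave 264.0 and 269.8 against 393.8 and 399.1 (0.46 ± 0.05).

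Decreases with both TiO2-H signals below both Sham signals were ranked among unannotated probes detected on all 4 arrays. The 5 largest each rested on 1 bright Sham array. A_55_P2167090, which was not detected on the TiO2-H arrays, had a larger decrease and is described below. A_55_P2156978 had 75.1 on the Sham male, 345.1 on the Sham female, 72.9 on the TiO2-H male and 46.1 on the TiO2-H female array, so its log2 fold change of -1.59 had a standard error of 0.88. A_55_P2131328 had 128.6, 50.3, 35.6 and 38.8 in the same order (-1.23 ± 0.51). Among decreases of this kind, A_55_P1959142, A_55_P1966216 and A_55_P2015124 followed with -0.79, -0.75 and -0.75, and standard errors of 0.53, 0.50 and 0.48. In each of the 5, a single Sham array was at least 2 times as bright as the other Sham array.

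Within each pair of arrays of one sex label, the thresholds of the study (≥1.5-fold and ≤0.67-fold) were applied with no test, since each group had 1 array. Where a spot was not well above background, its signal was raised to the lowest well-above-background signal of the array unless it already exceeded this, and the fold change is then a bound. On the arrays labelled male 80 of 1368 unannotated probes were ≥1.5-fold (5.85%, against 4.08% of all probes compared) and 67 were ≤0.67-fold (4.90%, against 3.29%). On the arrays labelled female 48 of 1366 were ≥1.5-fold (3.51%, against 2.65%) and 46 were ≤0.67-fold (3.37%, against 3.31%). Bounds made up 42 of the 80, 46 of the 67, 30 of the 48 and 30 of the 46.

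The Sham female array compared with the Sham male array, a comparison with no exposure in it, gave counts of the same order. Of 1289 unannotated probes 51 were ≥1.5-fold (3.96%, against 3.17% of all) and 63 were ≤0.67-fold (4.89%, against 3.15%). Between the TiO2-H arrays, again with no exposure contrast, 35 of 1401 were ≥1.5-fold on the array labelled female (2.50%, against 2.05% of all) and 78 were ≤0.67-fold (5.57%, against 4.17%).

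Fewer probes passed where both arrays were well above background, so that no bound entered. On the arrays labelled male 38 were ≥1.5-fold (3.20%, against 1.90% of all) and 21 ≤0.67-fold (1.77%, against 1.33%). On the arrays labelled female the counts were 18 (1.52%, against 1.19%) and 16 (1.35%, against 1.64%). Between the Sham arrays they were 17 (1.46%, against 1.2%) and 15 (1.29%, against 1.15%), and between the TiO2-H arrays 6 (0.478%, against 0.710%) and 25 (1.99%, against 1.82%).

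Both label pairs gave ≥1.5-fold for 11 unannotated probes of 1264 (0.870%, against 0.315% of all probes) and ≤0.67-fold for 1 (against 0.214%). A gap of 1.5-fold or more between the lower TiO2-H and the higher Sham signal, with only the TiO2-H signals required to be well above background, was found for 8 (0.545%, against 0.429% of all), and the reverse for 1 (0.0681%, against 0.168%). The probes past a threshold in both pairs were named after their values were seen. Of the 11, 8 were in the bright group, and the other 3 were A_55_P2067146, A_55_P2130945 and A_55_P2046910. A_55_P2130945 had 68.5 and 61.2 on the Sham arrays and 129.7 and 108.2 on the TiO2-H arrays. A_55_P2046910 had dim Sham signals (21.3 and 25.6, neither well above background) and gave 63.2 and 58.0 on the TiO2-H arrays, at least 1.94-fold and 1.67-fold on the arrays labelled male and labelled female. The probe that was lower in both pairs was A_55_P2167090, with 219.0 and 298.5 on the Sham arrays and signals not well above background, 9.33 and 19.7, on the TiO2-H arrays. It was lower by at least 7.95-fold on the arrays labelled male, and by more than that on those labelled female (adjusted p = 0.257 by limma).

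The largest changes within a pair were ranked among unannotated probes well above background on both arrays of the pair. Some bounds, given in other paragraphs, were larger. On the arrays labelled male the extreme values came from single arrays. On the arrays labelled male the largest increase was that of A_55_P2002954, at 572.6 on the TiO2-H male array, against 40.0 to 70.2 elsewhere (13.4-fold). A_55_P2046709 (242.3 on that array) and A_55_P2092745 (149.0) were next, at 4.20-fold and 2.89-fold. The largest decrease was that of A_55_P2081945, with 514.2 on the Sham male array and 25.7 to 38.3 on the others, 14.4-fold lower. A_55_P2131328, described before, was 3.87-fold lower, and A_55_P2084851, with 774.8 on the Sham male array against 228.7 on the TiO2-H male array, was 3.63-fold lower.

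On the arrays labelled female, again among probes well above background on both, the largest decreases were likewise set by 1 array. A_55_P1977140 had 975.2 on the Sham female array and 60.7 to 82.9 on the others, 12.9-fold lower. A_55_P2156978 was 8.20-fold lower, and A_52_P53626, with 514.8 on the Sham female array against 73.1 on the TiO2-H female array, 7.71-fold lower. The increases among these probes were smaller. Of the 3 largest, 2 were in the bright group (A_55_P2075731 at 1.95-fold and A_55_P2028847 at 1.82-fold). The other was A_55_P2154740, with 51.0 on the Sham female and 107.2 on the TiO2-H female array (1.92-fold).

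Of the 199 unannotated probes detected on 1 array, 43 (1.57% of 2744) were seen only on the Sham male, 26 (0.95%) only on the Sham female, 59 (2.15%) only on the TiO2-H male and 71 (2.59%) only on the TiO2-H female array. The same shares of the other probes were 1.05%, 0.97%, 1.62% and 2.99%. The brightest of each set follow. The Sham male array had A_55_P2148949 (713.3), A_55_P2119263 (666.9) and A_55_P1987855 (640.6). The Sham female array had A_55_P2171391 (658.4), A_55_P2149741 (494.6) and A_55_P2095864 (463.8). On the TiO2-H arrays such probes were dimmer, with A_55_P2143049 (227.2), A_55_P2054097 (155.3) and A_55_P1969501 (128.6) on the array labelled male, and A_55_P2026614 (361.2), A_55_P2138247 (307.8) and A_55_P2233010 (259.0) on the array labelled female. Against the array of the same label, A_55_P2171391 was at least 30.9-fold and A_55_P2148949 at least 25.9-fold brighter on their Sham array, and A_55_P2026614 was at least 10.4-fold brighter on the TiO2-H female array. Each of these values is from 1 spot on 1 array.

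Since the sex-linked genes went against the labels of the TiO2-H arrays, the order of Xist and Eif2s3y was looked for among the unannotated probes, after the values were seen. In 5 probes the Sham male and TiO2-H female arrays, which had the high Eif2s3y signals, were both ≥1.5-fold above the other arrays (0.340%, against 0.174% of all probes). The brightest of these was A_55_P2148285, at 79.3 and 88.7 against 26.0 and 45.6. In 3 probes the Sham female and TiO2-H male arrays, which had the high Xist signals, were the higher ones (0.204%, against 0.101% of all). A_55_P2114626, with 102.4 and 96.2 against 45.2 and 52.3, was detected on all 4 arrays, and A_55_P2036922, with 48.7 and 71.9 against 8.25 and 7.88, on the higher ones only. By the labels themselves, 3 probes were ≥1.5-fold higher on both arrays labelled male (0.204%, against 0.129% of all) and 1 on both labelled female (0.0681%, against 0.0309%). All 4 had signals under the 75th percentile of their array.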

How the data were processed

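Whole-brain RNA of 4 pools was labeled with Cy3 and hybridized to one-color arrays. The authors deposited each array's scanner output as intensity, made with Feature Extraction 10.10.1.1 (per the file headers), which subtracts background and gives each spot a processed signal and flags. The deposited value table held the same intensity at all 59305 non-control spots.

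Unannotated probes were those, controls aside, with identical probe and systematic names. Processed signals were divided by the 75th percentile of the array's non-control spots and taken to log2, without outlier spots and with spots of a probe averaged. Of the unannotated probes, 3 had an outlier spot, on the Sham male array. Both TiO2-H arrays were tested against both Sham arrays with limma 3.58.1 (R 4.3.3) over all probes well above background on at least 2 arrays, with Benjamini-Hochberg adjustment. The remaining work was done in Python 3.11.15 with numpy 2.4.6 and pandas 2.3.3. Both kinds of comparison were first tested on simulated data. Probes spotted 10 times varied by an SD of 0.06 to 0.07 on the log2 scale within an array where well above background, and by 0.18 to 0.37 where not.

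Named probes were the 10 brightest, the 3 lowest p and the 3 brightest per array among those seen on 1 array. Also named were the 5 largest increases and decreases with both TiO2-H arrays on one side of both Sham arrays (detected on all 4). Per label pair, the 3 largest changes each way were named among probes well above background on both arrays. The probes, lists and rules were chosen with earlier results of these data known. Alternatives were no scaling, quantile normalization, the value table, a normexp background with an offset of 50, outlier spots kept, another detection flag, other filters, floors and thresholds, other pairings, sex as a block, other numbers of brightest probes, and each array left out. The bright group with a 1.3-fold gap was chosen after seeing the data. No positions were given, since no probe coordinates or genome were used.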

Additional observations from a re-analysis of the deposited data

Results flagged for a closer look

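Of 46 named unannotated probes compared in both label pairs, 7 passed 1.5-fold in one pair and 0.67-fold in the other. With 1 array per group the difference between the pairs was not tested. As log2 fold change on the arrays labelled female minus that on the arrays labelled male, and with dim signals set to the floor, it was 1.47 for A_55_P1972975, 1.88 for A_55_P2049513, 2.27 for A_55_P2070224 and 2.25 for A_55_P2148285, and in the other direction -2.34 for A_55_P2036922, -2.09 for A_55_P2114626 and -2.89 for A_55_P2046709. All but A_55_P2046709 were named for having the order of arrays of the sex-linked genes, which sets such opposite values.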

How the results depend on the processing

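With 2 arrays per exposure, limma called 0 unannotated probes under every alternative. Of all 31919 probes tested it called 3 without scaling and 2 with a normexp background. The lowest adjusted p by limma was then 0.0435 and 0.0361. With an array left out, the lone array of its exposure was assumed to vary like the pair of the other. Of 501 values of 41 named probes under alternatives, 489 kept their direction. Several alternatives could not turn a direction, so this count is no measure of robustness. The value table held the same intensities, and other filters only changed which probes were tested. The blocks by sex left the fold changes as they were, and keeping outlier spots did not touch these probes. Without scaling the 10 brightest turned upward, except A_55_P1970596, which was higher in both, with 0.055 (A_55_P1953475), 0.066 (A_55_P1962466), 0.031 (A_55_P1969874), 0.075 (A_55_P1969993), 0.073 (A_55_P2015666), 0.062 (A_55_P2015934), 0.069 (A_55_P2090953), 0.044 (A_55_P2152188) and 0.048 (A_55_P2186787). A_55_P1969993 was 0.0048 with quantile normalization, A_55_P2095227 was -0.068 with normexp, and A_55_P2015666 ranged from -0.094 to 0.011 with an array left out, the latter without the Sham male array. The causes were not tested.

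With the flag for positive and significant signals, 65.4% of unannotated probes were detected, -9.34 points from the others. With normexp the median signals differed by -0.49. Of the 50 brightest, 2.0% (no scaling) and 32.0% (quantile) had both TiO2-H arrays below both Sham arrays. The shares of other probes as bright were 0.78% and 25.6%. At unadjusted p, no scaling gave 243 higher and 11 lower probes, and sex as a block gave 65 lower as labelled and 49 crossed. With an array left out there were 43 (without TiO2-H male) to 121 (without Sham female) higher, and 33 (without TiO2-H female) to 65 lower (43 without TiO2-H male, 57 without Sham male and 65 without Sham female). The median log2 fold change was 0.088 without scaling, -0.078 without a filter, and -0.043 to -0.017 with an array left out (without Sham female and without TiO2-H female). Its difference from the other probes was -0.028 with quantile normalization, -0.031 with normexp, -0.053 without a filter, and -0.053 to -0.034 with an array left out.

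For the arrays labelled male, ≥1.5-fold held for 50 unannotated probes with normexp (3.65%, against 1.73% of all probes compared). With both arrays well above background it held for 38 (3.20%, against 1.90%), and 21 were ≤0.67-fold (1.77%, against 1.33%). There were 128 without a floor (9.36%, against 6.23%) and 29 at 2-fold (2.12%, against 1.46%). For the arrays labelled female ≥1.5-fold held for 23 with normexp (1.68%, against 0.969%). With both arrays well above background it held for 18 (1.52%, against 1.19%), and 16 were ≤0.67-fold (1.35%, against 1.64%). There were 94 without a floor (6.88%, against 5.64%) and 16 at 2-fold (1.17%, against 1.00%). The share of ≥1.5-fold among unannotated probes past either threshold was 51.1% on the arrays labelled female (44.5% for all probes). It moved to 63.2% without scaling (61.6% for all), 41.1% with normexp (31.1%) and 67.1% without a floor (63.0%). On the arrays labelled male it moved from 54.4% (55.4% for all) to 64.6% without a floor (63.5%). Members defined by a gene name column were not run, as no such column was used. The blocks by sex label, as labelled and crossed within TiO2-H, were the only paired fits, with lowest adjusted p of 0.387 and 0.420 by limma. Depth on an array is limited by background, which leaves most unannotated probes with a bound or no value.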
